A study of Mus musculus with 18 samples.

Results

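The 7 genes described here encode the RNA-binding proteins that shorten the life of cytokine mRNAs in macrophages. They are the TTP family (Zfp36, which encodes tristetraprolin, with Zfp36l1 and Zfp36l2), the Regnases Zc3h12a (Regnase-1) and Zc3h12c (Regnase-3), and the Roquins Rc3h1 (Roquin-1) and Rc3h2 (Roquin-2). They were picked by gene symbol with no threshold on their values, but with earlier results of these data known. All 7 were found among the 56953 gene IDs of the count table, and all 7 were among the 13068 genes that passed a filter on low counts and were tested.

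Total RNA was sequenced from bone marrow derived macrophages (BMDMs), which had been grown in medium with supernatant of L929 cells, which secrete M-CSF. B6 macrophages were of genotype C57BL/6J, and T169A macrophages carried the T169A mutation of RIPK1, a kinase of TNF and Toll-like receptor signalling that can trigger cell death. There were 3 treatments per genotype: none (unstimulated), lipopolysaccharide (LPS, the bacterial ligand of the receptor TLR4) for 2 h, and LPS with 5z7 for 2 h, written LPS/5z7. The name 5z7 is not explained in the labels; it commonly stands for the TAK1 inhibitor (5Z)-7-oxozeaenol, and no group received it without LPS. Each of the 6 groups held 3 libraries, which are named here by group and by the running number of their column. Nothing shows that replicate libraries were separate animals or cultures, so p-values cover only the variation among these libraries, which may be technical.

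Many cytokine mRNAs carry AU-rich elements in their 3' untranslated region. The TTP family proteins bind these elements through a pair of CCCH zinc fingers and recruit the CCR4-NOT complex, which removes the poly(A) tail. Regnase-1 is an endonuclease that cuts stem-loops in the mRNAs of Il6, Il12b and similar genes, and the Roquins bind related stem-loops and recruit deadenylation and decapping factors. In macrophages Zfp36 is known as an LPS-induced gene whose protein is held in an inactive, phosphorylated form by the p38 and MK2 kinases, and Regnase-1 protein is known to be degraded after TLR signalling and then made again.

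The letters of a TTP family binding site also occur in the mRNAs of some of the factors themselves. These matches are shown beside that of Tnf, a cytokine mRNA described further on. A match describes the letters and does not show that a protein binds. The nonamer searched for was TTATTTATT on the transcript strand, in the 3' untranslated region of 1 GENCODE M21 transcript per gene. It was found once each in Zfp36, Zfp36l1, Zfp36l2, Rc3h1 and Rc3h2, and not in Zc3h12a or Zc3h12c. Of 20123 mouse 3' untranslated regions, 7.09% held it. Their median length was 838 bases, while those of the 5 members with a site ran from 774 bases in Zfp36 to 7181 bases in Rc3h1, and longer regions have more places for a match. Tnf, the classical TTP target, held 5 overlapping copies. The nonamer is in capitals with 8 bases on either side, and for Tnf the first copy is given:
Zfp36: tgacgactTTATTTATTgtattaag
Zfp36l1: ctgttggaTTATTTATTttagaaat
Zfp36l2: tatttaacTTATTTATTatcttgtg
Rc3h1: tttactcaTTATTTATTgagatgag
Rc3h2: aagacattTTATTTATTttactctg
Tnf: tgcacttaTTATTTATTatttattt
The nonamer began 589 bases after the stop codon in Zfp36, 1404 in Zfp36l1, 821 in Zfp36l2, 2256 in Rc3h1, 1928 in Rc3h2 and 438 in Tnf. The flanking bases differed between the members, and in Tnf the bases that follow run into its next copies.

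The promoters of Zfp36 and Zfp36l1 are shown because Zfp36 was the family member that rose with LPS and Zfp36l1 the one that fell most with 5z7. Both are the 250 bases before the annotated start in RefSeq on build GRCm38.p6, read 5' to 3' on the minus strand, at chr7:28379229-28379478 for Zfp36 and chr12:80113014-80113263 for Zfp36l1. Capitals mark an EGR site and then a CArG box, the binding site of SRF, in Zfp36, and an AP-1 site and then a TATA box in Zfp36l1:
Zfp36: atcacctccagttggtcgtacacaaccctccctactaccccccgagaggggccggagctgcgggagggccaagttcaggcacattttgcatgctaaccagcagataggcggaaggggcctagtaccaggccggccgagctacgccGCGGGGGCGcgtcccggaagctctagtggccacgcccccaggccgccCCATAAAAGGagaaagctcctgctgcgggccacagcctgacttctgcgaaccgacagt
Zfp36l1: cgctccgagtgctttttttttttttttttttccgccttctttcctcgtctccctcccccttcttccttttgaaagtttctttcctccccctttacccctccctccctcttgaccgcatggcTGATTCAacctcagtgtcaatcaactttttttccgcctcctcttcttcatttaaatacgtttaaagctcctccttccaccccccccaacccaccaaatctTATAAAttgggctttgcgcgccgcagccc
A set of 7 motifs was searched on both strands: the CArG box, the NF-kB site, the AP-1 site TGANTCA, the cAMP response element TGACGTCA, the EGR site GCGNGGGCG, the GAS site TTCNNNGAA and the TATA box TATAAA. The CArG box CCATAAAAGG of Zfp36 began 58 bases and its EGR site 105 bases before the start, and a GAS site TTCTGCGAA, not in capitals, 17 bases before it. In Zfp36l1 the AP-1 site TGATTCA began 129 bases and the TATA box 29 bases before the start. This AP-1 match rests on the open letter N of TGANTCA, which any base fills and which is T here. The other matches were an AP-1 site TGACTCA in Rc3h1, 133 bases before the start, and an NF-kB site on the other strand in Zc3h12c, 236 bases before it. Of 32851 promoter windows of this length, 1.47% held the CArG box, 4.70% the EGR site, 7.02% the GAS site, 6.75% the AP-1 site, 12.4% the TATA box, 7.25% the NF-kB site and 1.55% the cAMP response element. A match describes the letters and does not show that a factor binds, and 6 of the 7 members had a promoter in the table.

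The libraries held 14.6 to 30.4 M counts, and levels are given as counts per M (CPM) scaled by TMM, a method that sets libraries on a common scale by their typical gene. The TMM factors differed with treatment, from 1.24 to 1.28 in unstimulated, 0.83 to 0.86 in LPS and 0.93 to 0.96 in LPS/5z7 libraries. The 8 macrophage markers summed to between 31480 and 41650 CPM in every library, against 13.8 to 44.3 CPM for 5 neutrophil markers. The sum of 3 dendritic cell markers ran from 0.163 to 0.430 CPM in unstimulated, 1.36 to 2.41 CPM in LPS and 1.81 to 3.13 CPM in LPS/5z7 libraries. Of these 3, Zbtb46 reached 3.13 CPM, while Flt3 and Xcr1 reached at most 0.240 and 0.311 CPM. The sum of 3 fibroblast markers ran from 1.45 to 4.74 CPM in unstimulated, 5.59 to 9.81 CPM in LPS and 8.73 to 13.2 CPM in LPS/5z7 libraries. Pdgfrb reached 10.4 CPM, Col1a1 3.64 CPM and Col3a1 1.80 CPM. Whether cell content or single genes changed, and the part of any of these cell types in the results, was not tested. T cell, B cell, mast cell and erythroid markers summed to at most 0.158 CPM, with Cd3e at 0 in all 6 groups. The B6 unstimulated library 7 stood apart: genes with long exons were low in it, by 0.58 on the log2 scale against the short ones. The members with long exons, Zc3h12c, Rc3h1 and Rc3h2, were low there too, so their changes against unstimulated B6 cells are given with and without this library. An amino acid change leaves no trace in gene counts, so the T169A labels could not be checked.

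With LPS alone the 7 genes moved in both directions. In B6 cells 5 rose and 2 fell, and the same split, 5 and 2, was found in T169A cells (edgeR quasi-likelihood test, Benjamini-Hochberg adjusted p under 0.05). LPS changed so many genes that such a count says little about these 7, since 63.1% of all genes tested passed the same test in B6 (29.6% higher, 33.5% lower) and 61.9% in T169A (30.3% higher, 31.5% lower). The libraries of the compared groups were apart for 6 of the 7 in B6 and all 7 in T169A, beside 62.3% and 69.1% of all genes. The median log2 fold change of the 7 was 1.14 in B6 and 0.83 in T169A, beside −0.07 and −0.03 over all genes. In bulk RNA, fewer cells of a type and less RNA per cell cannot be told apart.

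**Figure D1:**
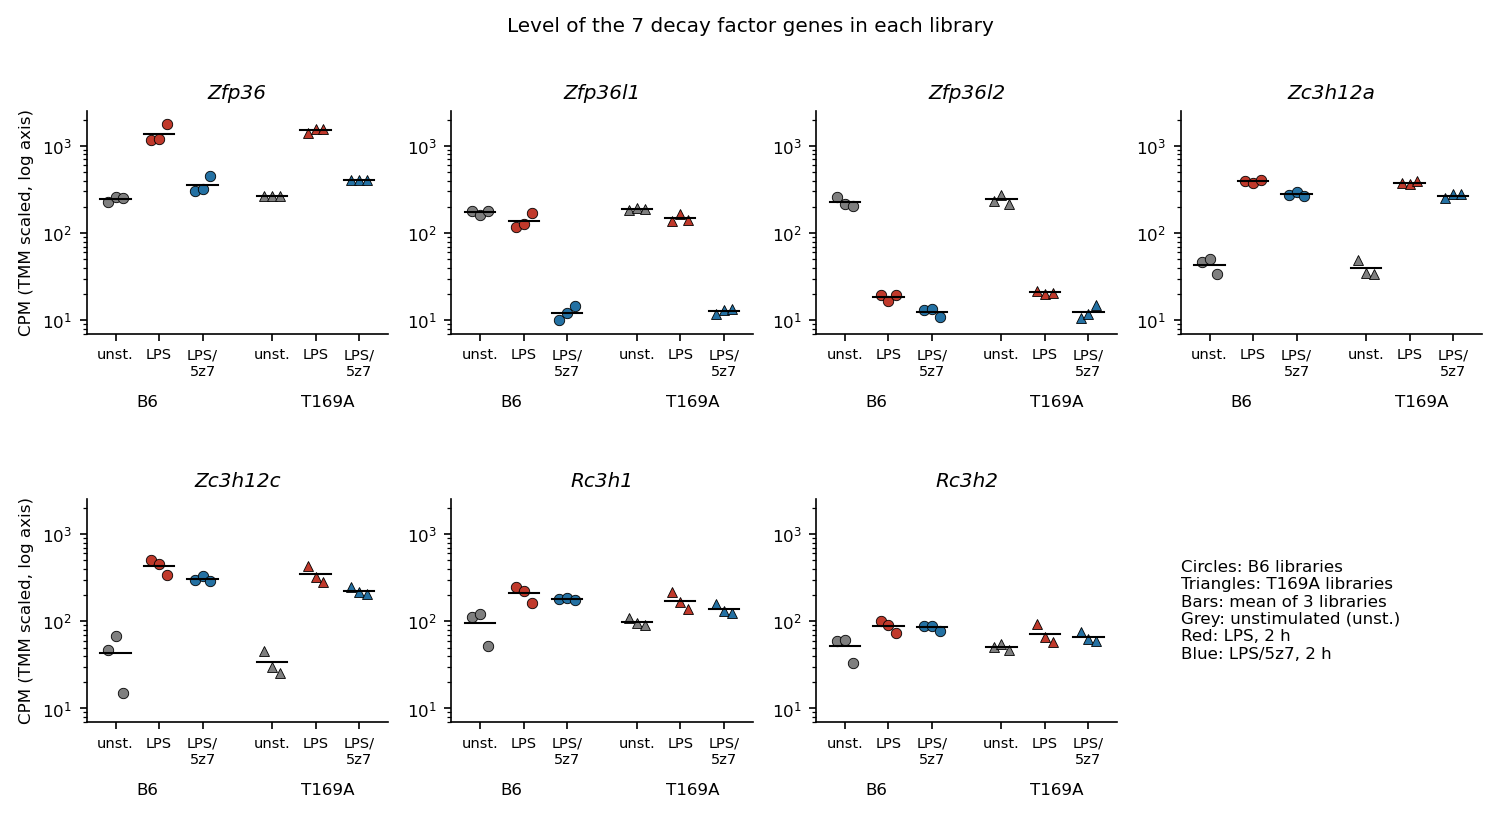
Each panel shows 1 gene, with TMM-scaled CPM on a log axis and 1 point per library, grouped by treatment and genotype, and a bar at the mean of 3 libraries. Zfp36 was highest with LPS, Zfp36l1 stood between 9.95 and 14.7 CPM with LPS/5z7, and Zfp36l2 was low with LPS and with LPS/5z7.

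Zfp36, the gene of tristetraprolin itself, rose with LPS. It stood at 230, 256 and 255 CPM in the B6 unstimulated libraries 1, 4 and 7 and at 1172, 1202 and 1762 CPM in the B6 LPS libraries 2, 5 and 8. The T169A unstimulated libraries 10, 13 and 16 held 265, 263 and 269 CPM and the T169A LPS libraries 11, 14 and 17 held 1407, 1546 and 1555 CPM. All LPS libraries lay above all unstimulated ones in each genotype, with B6 LPS library 8 the highest of all. The log2 fold change was 2.48 ± 0.15 (SE) in B6 and 2.50 ± 0.15 in T169A, a rise of 5.58-fold and 5.66-fold (edgeR adjusted p = 2.73e-10 and 2.43e-10).

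Zfp36l2, a paralog best known for its roles in lymphocytes and blood progenitors, went the other way. Its libraries in the same order held 259, 216 and 205 CPM in unstimulated B6 cells and 19.7, 16.6 and 19.3 CPM after LPS. T169A cells had 235, 276 and 218 CPM unstimulated and 21.9, 20.2 and 20.5 CPM after LPS. No LPS library came near the unstimulated range in either genotype. The fall was 12.2-fold in B6 and 11.6-fold in T169A, with log2 fold changes of −3.61 ± 0.14 and −3.54 ± 0.14 (edgeR adjusted p = 7.32e-13 and 8.90e-13).

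Zfp36l1, the third member of the family, fell slightly with LPS alone. It stood at 179, 161 and 181 CPM in unstimulated B6 cells and at 118, 126 and 172 CPM after LPS, so the highest LPS library, library 8, lay within the unstimulated range. In T169A cells the unstimulated libraries held 183, 192 and 187 CPM and the LPS libraries 136, 165 and 143 CPM, with no overlap. The log2 fold change was −0.32 ± 0.14 in B6 and −0.34 ± 0.13 in T169A (edgeR adjusted p = 0.0449 and 0.0360). The B6 call was lost with DESeq2 (−0.28, adjusted p = 0.0795), and both calls were lost once a trend with exon length was removed (−0.17, adjusted p = 0.203, and −0.26, adjusted p = 0.0555). Leaving out B6 library 1, 2, 5 or 7 also lost the B6 call, and leaving out T169A library 10, 11, 13, 16 or 17 the T169A call, with adjusted p between 0.0590 and 0.207.

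With 5z7 added to LPS, Zfp36l1 was the member that fell most. Its B6 LPS/5z7 libraries 3, 6 and 9 held 9.95, 12.1 and 14.7 CPM, against 118 to 172 CPM with LPS alone. In T169A the LPS/5z7 libraries 12, 15 and 18 stood at 11.9, 13.0 and 13.5 CPM, against 136 to 165 CPM. A wide gap separated the groups in each genotype. The fall was 11.3-fold in B6 and 11.6-fold in T169A, log2 fold changes of −3.50 ± 0.15 and −3.54 ± 0.15 (edgeR adjusted p = 6.35e-10 and 5.09e-10). Zfp36l1 had the smallest p-value of all 13068 genes for this comparison in B6 and also in T169A. The libraries differ, but both p-values come from the same fit, in which all groups share an estimate of the spread. The ranks are therefore not independent of each other.

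Zfp36 also fell with 5z7, but not below its unstimulated level. Its LPS/5z7 libraries held 307, 322 and 447 CPM in B6 and 404, 409 and 408 CPM in T169A. They lay below every LPS library and above every unstimulated library of their genotype. Against LPS the log2 fold change was −1.94 ± 0.15 in B6 and −1.88 ± 0.15 in T169A (edgeR adjusted p = 1.77e-07 and 2.27e-07). Against unstimulated cells it was 0.54 ± 0.15 and 0.62 ± 0.15 (edgeR adjusted p = 0.00472 and 0.00178). This last rise was lost when libraries were scaled by their size alone, at 0.11 and 0.19 (adjusted p = 0.496 and 0.253), and in B6 without LPS/5z7 library 9 (0.33, adjusted p = 0.0514).

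Zfp36l2, already low with LPS, was lower still with 5z7. The LPS/5z7 libraries held 13.1, 13.6 and 10.9 CPM in B6 and 10.5, 11.7 and 14.9 CPM in T169A, below all LPS libraries of their genotype. Its log2 fold change was −0.56 ± 0.14 in B6 and −0.76 ± 0.14 in T169A (edgeR adjusted p = 0.0120 and 0.00122). The B6 call was lost without LPS/5z7 library 9 (−0.49, adjusted p = 0.0568) and with library size alone (−0.39, adjusted p = 0.0556). In all, 4 members fell with 5z7 in each genotype and 0 rose, while 6.79% of all genes tested fell and 7.03% rose in B6, and 6.53% and 6.50% in T169A. The 4 were the 3 TTP family genes and Zc3h12a. The median log2 fold change of the 7 was −0.51 in B6 and −0.63 in T169A, beside 0.02 over all genes in each.

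**Figure D2:**
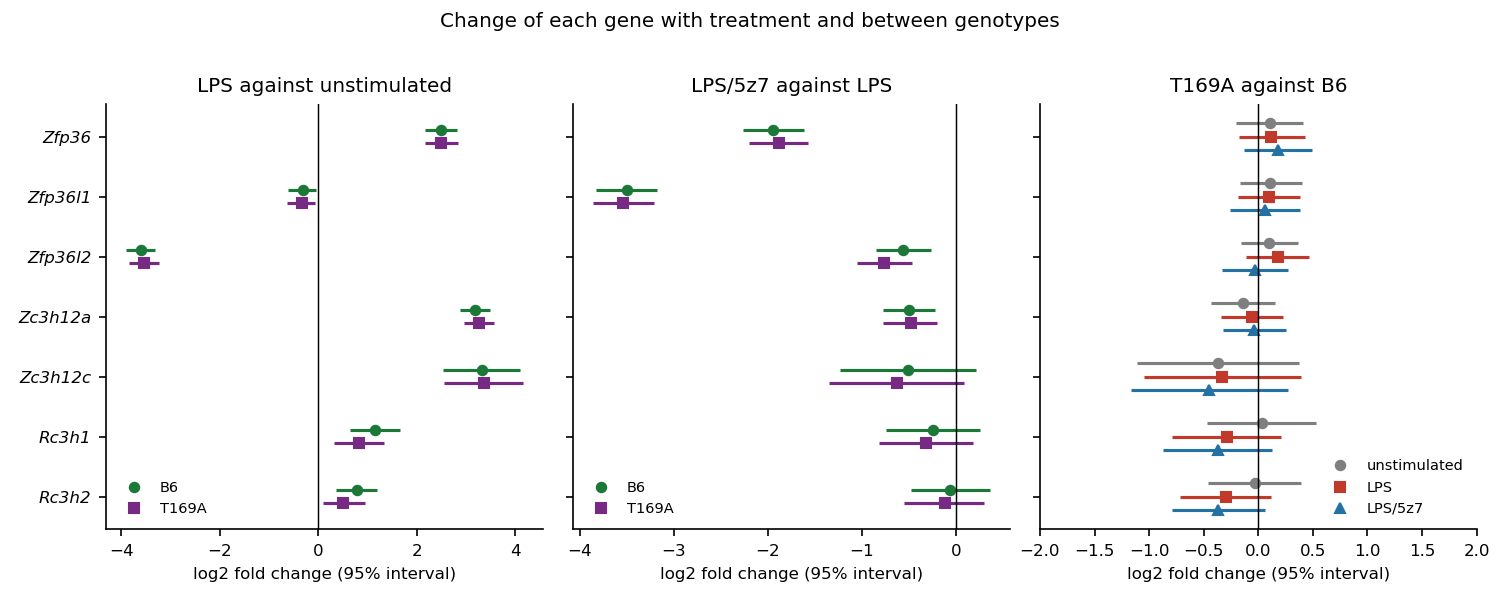
Points are log2 fold changes with 95% intervals from the edgeR fit, 1 row per gene, for LPS against unstimulated (left), LPS/5z7 against LPS (middle) and T169A against B6 (right, a narrower axis). The intervals of the 2 genotypes overlap for every gene in the left and middle panels. Their points are furthest apart for Rc3h1 with LPS, at 1.14 in B6 and 0.83 in T169A. All 21 genotype intervals in the right panel cover 0.

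After LPS most of the TTP family's mRNA was Zfp36. Levels between genes are compared as CPM per kilobase of exon. In unstimulated B6 cells Zfp36, Zfp36l1 and Zfp36l2 made up 36.9% ± 3.21 (SD, n = 3), 30.0% ± 1.47 and 33.1% ± 3.32 of the family's sum per kilobase. After LPS the shares were 88.4% ± 0.470, 10.4% ± 0.328 and 1.20% ± 0.250, and with LPS/5z7 they were 93.0% ± 1.05, 3.70% ± 0.289 and 3.32% ± 0.927. T169A cells gave nearly the same shares for Zfp36, at 36.8% ± 1.90 unstimulated, 88.7% ± 0.697 after LPS and 93.8% ± 0.644 with LPS/5z7.

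The sum of the family per kilobase followed Zfp36. It was 193 ± 5.62 CPM per kilobase in unstimulated B6 cells, 449 ± 106 after LPS and 111 ± 22.5 with LPS/5z7 (SD, n = 3). In T169A cells the same sums were 208 ± 8.81, 488 ± 27.1 and 125 ± 1.48. With LPS/5z7 the mean sum stood below the unstimulated one in both genotypes, while Zfp36 alone stood above its unstimulated level; the sums were not tested.

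**Figure D3:**
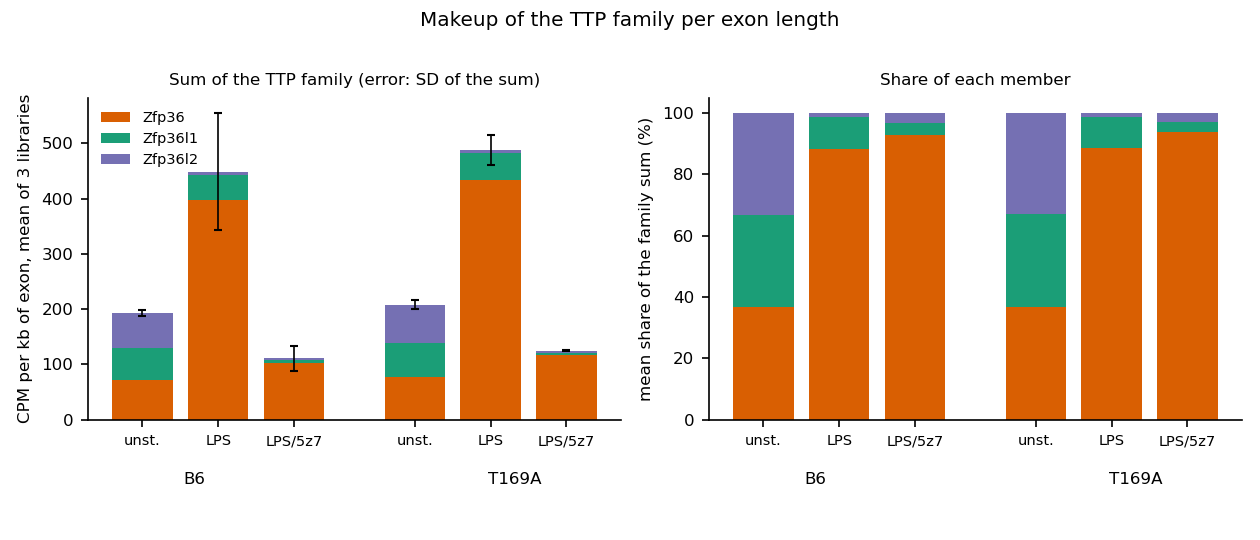
Stacked bars give the TTP family in CPM per kilobase of exon (left, mean of 3 libraries, error bars the SD of the sum) and each member's mean share of the sum in percent (right), for the 6 groups. Zfp36 (orange) holds 36.9% of the sum in unstimulated B6 cells and 88.4% after LPS, and the sum is lowest with LPS/5z7.

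Whether 2 paralogs changed unequally was tested with their ratio inside each library, which does not depend on how libraries are scaled. An exact two-sided permutation test shuffled the treatment labels within each genotype; it has 400 arrangements and cannot give a p below 0.005. There were 10 such tests, with Benjamini-Hochberg adjustment over the 10. The log2 ratio of Zfp36 to Zfp36l1 rose by 2.82 with LPS and by a further 1.60 with 5z7, averaged over the genotypes. The ratio of Zfp36 to Zfp36l2 rose by 6.05 with LPS and fell by 1.24 with 5z7. The ratio of Zfp36l1 to Zfp36l2 rose by 3.23 with LPS and fell by 2.85 with 5z7, which returned it close to 0. All 6 of these tests gave the smallest possible p of 0.005 (exact, adjusted 0.00714), and in each of them the libraries did not overlap in either genotype. The 2 comparisons share the LPS libraries.

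The 2 Regnases rose together with LPS. Zc3h12a, which encodes Regnase-1, stood at 46.0, 49.8 and 33.6 CPM in unstimulated B6 cells and at 394, 377 and 406 CPM after LPS. In T169A cells it went from 48.8, 34.8 and 34.3 CPM to 372, 364 and 397 CPM. The LPS libraries were close together and far above the unstimulated ones. The rise was 9.08-fold in B6 and 9.60-fold in T169A, log2 fold changes of 3.18 ± 0.15 and 3.26 ± 0.15 (edgeR adjusted p = 5.68e-12 and 4.23e-12).

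Zc3h12c, which encodes the related Regnase-3, spread more among replicates. The unstimulated B6 libraries 1, 4 and 7 held 46.8, 68.2 and 14.9 CPM and the LPS libraries 2, 5 and 8 held 502, 457 and 343 CPM. In T169A cells it stood at 45.4, 30.2 and 25.6 CPM unstimulated and 430, 325 and 281 CPM after LPS. The groups did not overlap although library 7 was far below its replicates. The log2 fold change was 3.32 ± 0.37 in B6 and 3.36 ± 0.37 in T169A (edgeR adjusted p = 5.85e-07 and 5.30e-07), and without library 7 the B6 value was 2.91 (adjusted p = 2.76e-08).

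With 5z7 the mRNA of Regnase-1 fell slightly. Zc3h12a held 274, 293 and 264 CPM in the B6 LPS/5z7 libraries and 255, 277 and 277 CPM in the T169A ones, below all LPS libraries. Its log2 fold change against LPS was −0.50 ± 0.13 in B6 and −0.48 ± 0.13 in T169A (edgeR adjusted p = 0.0193 and 0.0235). Both calls were close to the threshold: scaling by library size alone lost them (−0.34 and −0.33, adjusted p = 0.0722 and 0.0851), and so did leaving out B6 LPS/5z7 library 3 or 9, T169A LPS library 17, or any of the T169A LPS/5z7 libraries 12, 15 and 18, with adjusted p between 0.0604 and 0.0688. Against unstimulated cells Zc3h12a still stood 6.41-fold and 6.87-fold higher (log2 fold changes of 2.68 ± 0.14 and 2.78 ± 0.14, edgeR adjusted p = 5.38e-11 and 3.18e-11).

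Zc3h12c held 300, 327 and 287 CPM in the B6 LPS/5z7 libraries and 246, 216 and 207 CPM in the T169A ones. These values too lay below all LPS libraries of their genotype, but the difference did not pass the test. The log2 fold change against LPS was −0.51 ± 0.34 in B6, with a 95% interval from −1.23 to 0.21, and −0.63 ± 0.34 in T169A, from −1.35 to 0.09 (edgeR adjusted p = 0.391 and 0.282). A fit on the compared groups alone did call it lower, with the same size (−0.52 and −0.64, adjusted p = 0.0154 and 0.0280). Libraries of the 2 groups were apart for 35.5% of all genes in B6 and 29.6% in T169A.

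An unequal change of the 2 Regnases was not detected. The log2 ratio of Zc3h12a to Zc3h12c differed by −0.23 with LPS (exact permutation test, p = 0.505, adjusted 0.561) and by 0.06 with 5z7 (p = 0.675, adjusted 0.675). The ratio spread widely, with an SD of 0.49 within groups for the LPS comparison, which limits what could be seen. It was 1.17 in library 7 against −0.03 and −0.45 in its replicates 1 and 4. Leaving out single libraries gave −0.40 to 0.01 for the LPS comparison. The exons of the 2 genes differ in length, and the part of the shift of long genes in their ratio was not tested. Per kilobase of exon Zc3h12a made up 68.4% to 74.2% of the 2 in the 6 groups, and their sum went from 21.3 ± 6.84 CPM per kilobase in unstimulated B6 cells to 200 ± 9.62 after LPS and 141 ± 7.92 with LPS/5z7.

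**Figure D4:**
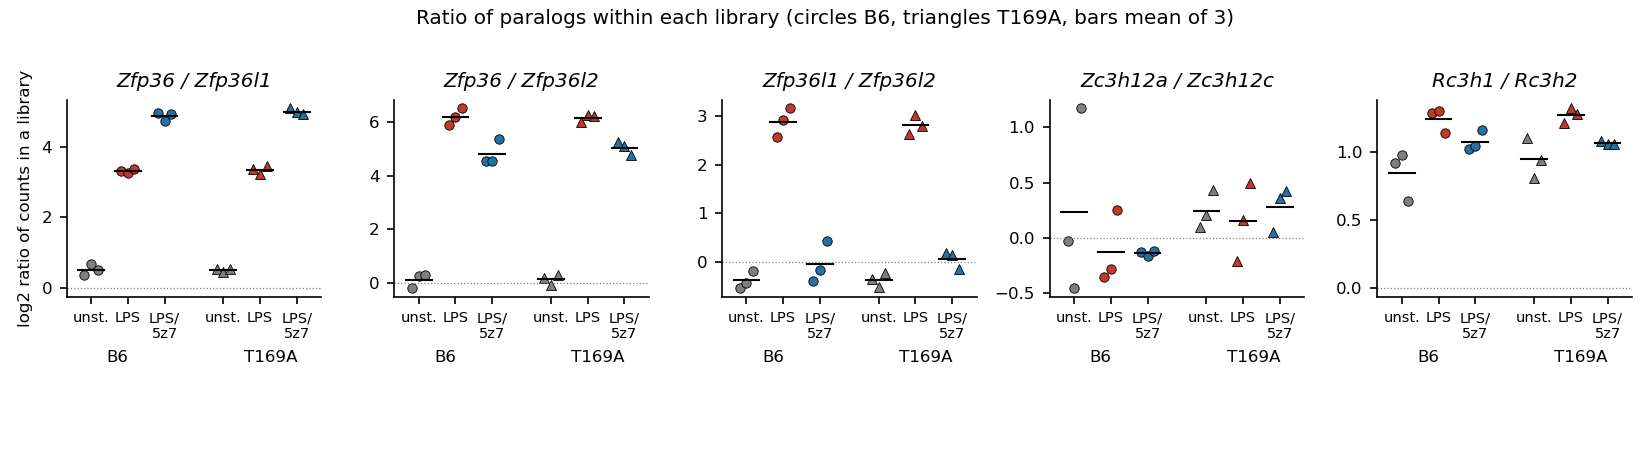
Each panel gives the log2 ratio of the counts of 2 paralogs inside each library, 1 point per library with a bar at the mean of 3, on an axis of its own. The 3 TTP family ratios shift by 1.24 to 6.05 with treatment, the Roquin ratio shifts by 0.36 and −0.19, and the libraries of the Regnase ratio overlap between treatments.

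The Roquins rose modestly with LPS. Rc3h1, which encodes Roquin-1, stood at 113, 121 and 51.8 CPM in unstimulated B6 cells and 247, 224 and 161 CPM after LPS. In T169A cells it held 108, 95 and 90.3 CPM unstimulated and 215, 165 and 139 CPM after LPS. The groups did not overlap in either genotype. Rc3h1 changed by 1.14 ± 0.24 on the log2 scale in B6 (0.85 without library 7) and 0.83 ± 0.24 in T169A (edgeR adjusted p = 4.81e-04, 3.67e-04 and 0.00618).

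Rc3h2, which encodes the partly redundant Roquin-2, changed least with LPS among the members that rose. It held 59.8, 61.5 and 33.3 CPM in unstimulated B6 cells and 101, 91.3 and 73.5 CPM after LPS, and 50.2, 54.2 and 47.0 against 92.6, 65.9 and 57.2 CPM in T169A. The libraries were apart in both genotypes, by a small margin in T169A. On the log2 scale Rc3h2 changed by 0.78 ± 0.20 in B6 (0.55 without library 7) and 0.51 ± 0.20 in T169A (edgeR adjusted p = 0.00262, 0.00727 and 0.0346). The T169A call rests on single libraries: without library 11 the value was 0.27 (adjusted p = 0.264), without library 10 it was 0.51 (0.0745) and without library 16 it was 0.46 (0.111). With no filter on low counts it was 0.50 (adjusted p = 0.151), and it turned to −0.07 (adjusted p = 0.731) when libraries were scaled by size alone, which moved the median of all genes to −0.61. That scaling also lost the calls of Rc3h2 in B6 (0.19, adjusted p = 0.359) and of Rc3h1 in T169A (0.24, adjusted p = 0.340).

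With 5z7 neither Roquin was called. With LPS/5z7 Rc3h1 held 178, 184 and 174 CPM in B6 and 158, 132 and 125 CPM in T169A, and Rc3h2 held 88.0, 89.5 and 78.0 CPM and 74.7, 63.3 and 60.1 CPM. For both genes these values overlapped those of LPS alone. Against LPS the log2 fold change of Rc3h1 was −0.24 (95% interval −0.74 to 0.26) in B6 and −0.32 (−0.82 to 0.18) in T169A. That of Rc3h2 was −0.06 (−0.48 to 0.36) and −0.12 (−0.55 to 0.30). None of these 4 values passed the test (edgeR adjusted p between 0.476 and 0.910). The intervals leave room for changes of either sign.

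The 2 Roquins nevertheless changed unequally by a small amount. Their log2 ratio, Rc3h1 to Rc3h2, rose by 0.36 with LPS (exact permutation test, p = 0.005, adjusted 0.00714) and fell by 0.19 with 5z7 (p = 0.01, adjusted 0.0125). The libraries were apart in both genotypes for LPS and in 1 of the 2 for 5z7. Per kilobase of exon Rc3h1 made up 75.7% ± 2.35 of the 2 in unstimulated B6 cells, 80.4% ± 1.0 after LPS and 78.5% ± 0.868 with LPS/5z7.

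Against unstimulated cells, LPS/5z7 left 5 members higher and 2 lower in B6, where 55.5% of all genes tested were called (27.6% higher, 27.9% lower). In T169A it left 3 members higher and 2 lower, where 55.6% were called (28.1% higher, 27.5% lower). Zfp36l1 and Zfp36l2 were the 2 that stood below the unstimulated level in both genotypes, 14.2-fold and 18-fold in B6 and 14.7-fold and 19.7-fold in T169A. Rc3h1 and Rc3h2 passed the test in B6 (0.90 ± 0.24 and 0.72 ± 0.20, edgeR adjusted p = 0.00391 and 0.00556) and without library 7 (0.61 and 0.49, adjusted p = 0.00615 and 0.0171), but not with library size alone (0.48 and 0.30, adjusted p = 0.0687 and 0.170). In T169A they stood at 0.51 ± 0.24 and 0.39 ± 0.20 and did not (edgeR adjusted p = 0.0809 and 0.110), although the libraries were apart. A fit on the compared groups alone called both, with values of 0.50 and 0.39 (edgeR adjusted p = 7.20e-04 and 0.00267). Zc3h12c stood at 2.80 ± 0.37 in B6 (2.40 without library 7) and 2.73 ± 0.37 in T169A (edgeR adjusted p = 4.54e-06, 3.00e-07 and 6.27e-06). The groups were apart for all 7 members in each genotype, as for 58.8% of all genes in B6 and 69.2% in T169A. The difference between the genotypes was itself not called, at −0.40 (95% interval −1.10 to 0.31) for Rc3h1 and −0.33 (−0.93 to 0.26) for Rc3h2 (edgeR adjusted p = 0.830 for each), and −0.10 for each without library 7.

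Of the 3 members with long exons, Rc3h1 and Rc3h2 mostly moved within groups with a trend over all genes. Zc3h12c followed this trend less closely in unstimulated cells of both genotypes. For each library, the 3203 genes with the longest exons (at least 6.57 kb) were compared with the 3204 with the shortest (at most 2.56 kb), against the mean of the library's group. This shift was −0.58 in B6 unstimulated library 7 and 0.26 and 0.31 in its replicates 1 and 4, and it was −0.23 in B6 LPS library 8, 0.28 in T169A LPS library 11 and −0.23 in T169A LPS library 17. In library 7 Zc3h12c (6.84 kb of exon) stood 1.28, Rc3h1 (11.31 kb) 0.78 and Rc3h2 (19.62 kb) 0.58 below the group mean on the log2 scale, while the members with shorter exons stood at −0.34 (Zc3h12a), −0.14 (Zfp36l2), 0.05 (Zfp36) and 0.06 (Zfp36l1). In libraries 1 and 4, with nearly equal shifts, Zc3h12c stood at 0.37 and 0.91, and Zc3h12a at 0.11 and 0.23. In the T169A unstimulated libraries 10, 13 and 16 Zc3h12c stood at 0.47, −0.12 and −0.36, and Zc3h12a at 0.33, −0.15 and −0.17. The shift in these libraries was only 0.04, 0.05 and −0.08. A further fit removed each library's trend on exon length, taken here against the mean of all 18 libraries. It therefore also removed differences between groups in this trend. The LPS changes in B6 were then 3.36 for Zc3h12c, 1.06 for Rc3h1 and 0.55 for Rc3h2 (edgeR adjusted p = 1.13e-07, 1.13e-06 and 3.21e-07). In that fit the LPS/5z7 changes of Rc3h1 and Rc3h2 against unstimulated T169A cells were also called, at 0.57 and 0.46 (adjusted p = 0.00108 and 3.45e-06).

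**Figure D5:**
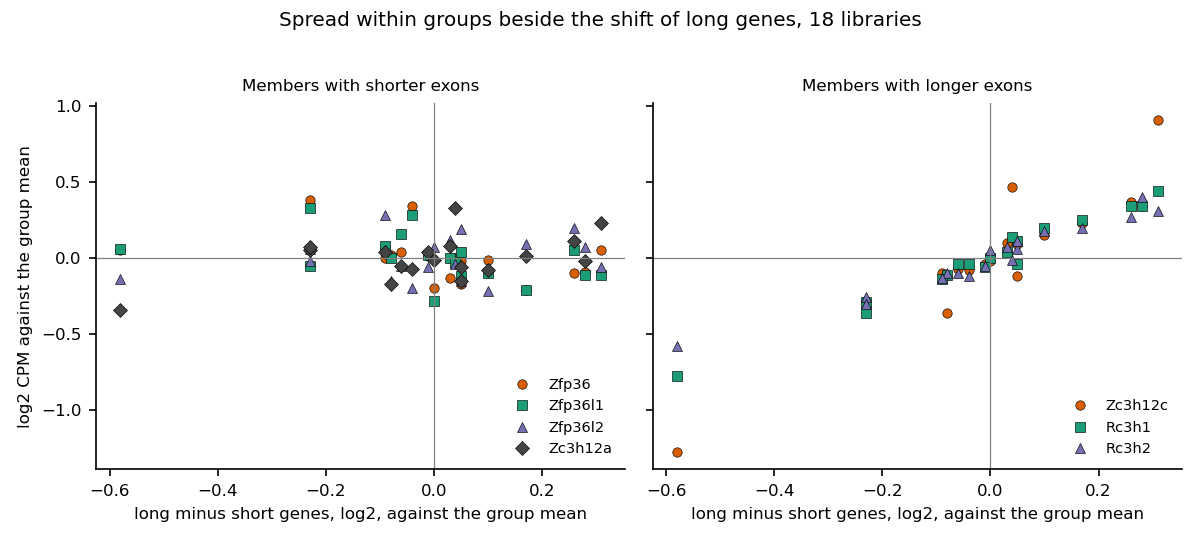
Each point is 1 gene in 1 library: its log2 CPM against the mean of its group (vertical) beside the shift of long against short genes in that library (horizontal), for members with shorter exons (left) and longer exons (right). On the right most points rise with the shift, and the lowest is −1.28 for Zc3h12c in library 7. Zc3h12c in the unstimulated libraries follows the shift less closely, for example at 0.47 beside 0.04 in T169A library 10 and 0.91 beside 0.31 in B6 library 4. On the left the lowest point for library 7 is −0.34 for Zc3h12a.

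Between the genotypes none of the 7 genes was called, in any of the 3 conditions (0 of 7 each by edgeR, 0 at an unadjusted p under 0.05, and 0 by DESeq2). Few genes were called at all: 0.214% of those tested in unstimulated cells, 0.222% with LPS and 0.161% with LPS/5z7. The largest values were those of Zc3h12c, with T169A against B6 at −0.37 (95% interval −1.11 to 0.37) unstimulated, −0.33 (−1.05 to 0.39) with LPS and −0.45 (−1.17 to 0.27) with LPS/5z7. The unstimulated value turned on single libraries, from −0.77 without library 7 (adjusted p = 0.249) to 0.12 without library 4, and was not called in either case. For Zfp36 the 3 values were 0.11 (−0.20 to 0.41), 0.12 (−0.18 to 0.43) and 0.18 (−0.13 to 0.49), and for Zfp36l1 they were 0.11 (−0.17 to 0.40), 0.10 (−0.19 to 0.38) and 0.06 (−0.26 to 0.38).

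The libraries of the 2 genotypes were apart for 2 members in unstimulated cells (Zfp36 and Zfp36l1, both higher in T169A), for 1 with LPS (Zfp36l2, higher) and for 3 with LPS/5z7 (Zc3h12c, Rc3h1 and Rc3h2, lower). The same was true of 8.48%, 10.5% and 23.2% of all genes. In LPS/5z7 cells the 3 lower members stood at −0.45 ± 0.34, −0.37 ± 0.24 and −0.37 ± 0.20 (edgeR adjusted p = 0.766 each). A fit on these 6 libraries alone called Zc3h12c (−0.44, adjusted p = 0.0225), and called 223 genes in all against 21. With the trend on exon length removed, within and between groups, the 3 values were −0.39, −0.23 and −0.12. The difference of the LPS effect between genotypes was likewise called for 0 of 7 members and for 0% of all genes, as was that of the 5z7 effect (0 members at an unadjusted p under 0.05, and 0 by DESeq2). For Zfp36l1 these differences were −0.02 (−0.42 to 0.39) and −0.04 (−0.46 to 0.39).

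Placed in order of mean level, neighbouring groups were apart between treatments for 6 members, and for 4 of the 7 they were also apart between the genotypes of 1 treatment. Zfp36 ran from T169A LPS (1502 ± 83 CPM, SD, n = 3) and B6 LPS (1379 ± 333), which overlapped, over T169A LPS/5z7 (407 ± 2.49) and B6 LPS/5z7 (359 ± 76.9), which overlapped too, to T169A unstimulated (266 ± 3.0) and B6 unstimulated (247 ± 14.9), which were apart. Zfp36l1 was apart between B6 LPS (139 ± 29.2) and T169A LPS/5z7 (12.8 ± 0.814), and between the genotypes in unstimulated cells. Zfp36l2 was apart between B6 unstimulated (226 ± 28.5) and T169A LPS (20.9 ± 0.918), between the genotypes with LPS, and between B6 LPS and B6 LPS/5z7. Zc3h12a was apart between T169A LPS/5z7 (270 ± 12.7) and B6 unstimulated (43.1 ± 8.50) and between T169A LPS and B6 LPS/5z7. Zc3h12c was apart between T169A LPS/5z7 (mean 223) and B6 unstimulated (mean 43.3) and between the genotypes with LPS/5z7. Rc3h1 was apart only between T169A LPS/5z7 (mean 139) and T169A unstimulated (mean 97.6). For Rc3h2 every neighbour in the order overlapped the next, from 88.6 ± 14.0 CPM in B6 LPS to 50.5 ± 3.6 in unstimulated T169A cells.

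The partners and regulators of these factors were read from a list of 22 genes, of which 21 were tested. In each genotype 15 rose with LPS and 3 fell. The 3 of these with the smallest p in B6 were Mapkapk2, which encodes the kinase MK2 that phosphorylates tristetraprolin, from 340 ± 14.4 to 2121 ± 45.4 CPM (log2 fold change 2.64 ± 0.09), Malt1, a protease known to cleave Regnase-1 and Roquins, from 40.3 ± 14.3 to 768 ± 109 CPM (4.25 ± 0.24), and Arid5a, a stabiliser of Il6 mRNA, from 8.36 ± 0.185 to 79.1 ± 17.4 CPM (3.24 ± 0.19). Zc3h12d, a further Regnase, was among the 3 that fell, at −1.35 in B6 and −1.22 in T169A. The list's share called in B6 was 85.7%, beside 63.1% of all genes, and its median was 0.67 beside −0.07.

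With 5z7 the list had 0 genes higher and 6 lower in B6, and 0 and 5 in T169A. Dusp1, a phosphatase of p38 and JNK, fell from 825 ± 222 to 42.5 ± 9.80 CPM in B6, a log2 fold change of −4.28 ± 0.20 (edgeR adjusted p = 8.41e-10), and by 4.03 in T169A. Mapkapk3, a kinase close to MK2, stood at −0.52 ± 0.08 and Ppp2ca, the catalytic subunit of the phosphatase PP2A, at −0.38 ± 0.08 in B6 (adjusted p = 2.13e-04 and 0.00519). The list's share called in B6 was 28.6% and its median −0.16, beside 13.8% and 0.02 for all genes. The T169A count was 2 without library 15 and 3 without library 11, 2 with no filter on low counts, and 2 lower and 1 higher with library size alone.

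The deadenylation and decapping machinery that these factors recruit moved in both directions with LPS. Of 30 genes 15 rose and 10 fell in each genotype. The share called in B6 was 83.3% beside 63.1% of all genes, and the median log2 fold change 0.33 beside −0.07. Dcp2, the decapping enzyme, rose from 41.1 ± 14.0 to 247 ± 45.4 CPM in B6 (2.58 ± 0.27), Dcp1a, its activator, from 31.9 ± 7.71 to 75.2 ± 3.30 CPM (1.23 ± 0.14), and Btg1, an adaptor of the CCR4-NOT deadenylases, from 199 ± 23.7 to 437 ± 18.6 CPM (1.14 ± 0.12). The CCR4-NOT genes went both ways in each genotype: Cnot2, Cnot4, Cnot6 and Cnot7 rose, at 0.25 to 0.71 in B6, and Cnot3, Cnot6l, Cnot8, Cnot9, Cnot10 and Cnot11 fell, at −0.27 to −0.67. Library size alone moved the median of all genes from −0.07 to −0.66 in B6, a shift of the order of these rises, so the directions are given relative to TMM scaling. The scaffold Cnot1 stood at 0.52 in B6 and 0.15 in T169A and was not called.

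With 5z7, 0 genes of the machinery were higher and 4 lower in each genotype, a share of 13.3% that is near the 13.8% of all genes in B6. The 4, named after their values were seen, were Tob1, Tob2, Btg1 and Btg2, which encode adaptors of the deadenylases. In B6 Btg2 went from 64.0 ± 10.5 to 24.4 ± 4.12 CPM (−1.39 ± 0.13), Btg1 from 437 ± 18.6 to 260 ± 10.2 CPM (−0.75 ± 0.12) and Tob2 from 43.6 ± 1.52 to 29.0 ± 1.64 CPM (−0.59 ± 0.10). With library size alone 4 further genes were called higher in B6.

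The mRNAs known as targets of the TTP family were read in the same way, since their decay is what the factors act on. Of 18 genes 16 rose with LPS and 1, Fos, fell in each genotype. The share called in B6 was 94.4% beside 63.1% of all genes, and the median log2 fold change 7.18 beside −0.07. Tnf rose from 106 ± 27.4 to 4947 ± 371 CPM in B6 (5.54 ± 0.23), and the chemokine genes Cxcl3, Ccl3 and Cxcl1 rose by 8.25 ± 0.22, 6.72 ± 0.19 and 8.54 ± 0.28. The list was drawn up from inflammatory genes, with earlier results of these data known, so neither its direction with LPS nor that with 5z7 is independent evidence. The nonamer shown above was present in 9 of the 18.

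All 18 TTP targets fell with 5z7 in each genotype, while 6.79% of all genes tested fell in B6 and 6.53% in T169A. Their median was −2.37 in B6 and −2.47 in T169A beside 0.02 over all genes. Il10, which encodes the anti-inflammatory cytokine, went from 137 ± 21.5 to 8.54 ± 0.855 CPM in B6 (−4.00 ± 0.20), Plaur, the urokinase receptor gene, from 663 ± 99.9 to 129 ± 5.33 CPM (−2.36 ± 0.12) and Cxcl3 from 196 ± 2.65 to 37.7 ± 5.10 CPM (−2.38 ± 0.15). Tnf fell less, to 2162 ± 68.6 CPM (−1.19 ± 0.19). Counts of RNA do not separate synthesis from decay.

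Of 14 mRNAs known as targets of Regnase-1 or the Roquins, 11 were tested, and Egln3, Calcr and Icos were too low. With LPS 9 rose and 1, Tnfrsf4, fell in B6, and 9 rose and 0 fell in T169A. The share called was 90.9% in B6 and 81.8% in T169A, beside 63.1% and 61.9% of all genes. This list too was drawn up with earlier results of these data known, so neither its LPS nor its 5z7 direction is independent evidence. Il12b, the gene of the interleukin-12 p40 chain, rose from 0.110 ± 0.109 to 307 ± 34.8 CPM in B6 (11.15 ± 0.29), Ptgs2, the inducible cyclooxygenase gene, from 1.41 ± 0.542 to 839 ± 19.0 CPM (9.15 ± 0.33) and Nfkbiz, the gene of the nuclear regulator IkB-zeta, from 54.4 ± 11.7 to 1657 ± 18.1 CPM (4.93 ± 0.18). With 5z7, 7 of the 11 fell and 0 rose in each genotype, a share of 63.6% beside 13.8% of all genes in B6. The log2 fold changes in B6 were −3.88 ± 0.25 for Ptgs2, −2.34 ± 0.22 for Ier3, an early response gene, and −1.92 ± 0.29 for Il6, while Nfkbiz and Rel, at −0.46 and −0.34, were not called. Il6, Ier3, Ptgs2 and Tnf are on both target lists. In each of the 3 genotype comparisons 0 genes of these 4 lists were called by edgeR and 0 by DESeq2. At an unadjusted p under 0.05 stood 1 of 21 partners in each condition and 0 of 30 genes of the machinery. Of 18 TTP targets 2, 1 and 2 did so in unstimulated, LPS and LPS/5z7 cells, and of 11 Regnase or Roquin targets 2, 3 and 2. Ier3 is counted in both target lists with LPS and with LPS/5z7. The share of all genes at this threshold is not given here, so nothing is concluded from these counts. Without library 7, 1 gene of each target list was called in unstimulated cells, and without library 10, 1 TTP target.

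The genes most like each member over the 18 libraries were found by Pearson's r of log2 CPM among 7827 genes with a mean of at least 10 CPM. All these libraries share the same 6 groups, so r includes the shared response to treatment. For Zfp36 they were Itpkc (0.988), Tnip2 (0.986) and the immediate early gene Ier2 (0.982). For Zfp36l1 they were Id2 (0.988), Gadd45a (0.973) and Stk17b (0.971), and for Zfp36l2 they included 1700017B05Rik and Cd300lb, at 0.995 each. Zc3h12a was closest to the NF-kB gene Nfkb2, Sdc4 and Gosr2, at 0.998 each. Zc3h12c was closest to Gna13 (0.997), Slc4a7 (0.997) and Zdhhc5 (0.996), Rc3h1 to Pum2 (0.996), Sash1 (0.994) and Med13 (0.993), and Rc3h2 to Pank3 (0.989), Rbm26 (0.984) and Prrc2c (0.984).

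Among the members themselves the same measure was 0.97 between the 2 Regnases, 0.97 between the 2 Roquins and 0.93 between Zc3h12c and Rc3h1. Zc3h12a and Zfp36l2 ran opposite, at −0.95. Within the TTP family it was 0.23 for Zfp36 and Zfp36l1, −0.56 for Zfp36 and Zfp36l2 and 0.68 for Zfp36l1 and Zfp36l2, so the TTP paralogs were less alike than the paralogs of the other families. The part of the shift of long genes in the likeness of Zc3h12c, Rc3h1 and Rc3h2 was not tested.

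In GENCODE M21, 4 members overlap a gene on the opposite strand. The overlap is 125 bases for Zfp36 with Gm44710, 105 bases for Zfp36l2 with AC132455.1, 117 bases for Zc3h12c with Mir6244 and 1672 bases for Zfp36l1 with the lincRNA Gm26669. Gm44710 had 7 to 34 counts, AC132455.1 1 to 6 and Mir6244 0 to 1 in the 18 libraries, all far below the member beside it. The ID of Gm26669 was not among the gene IDs of the count table, so it has no counts to compare. The strand setting of the counting is not given in the sources used here, so reads of Zfp36l1 and of Gm26669 over their shared stretch cannot be told apart.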

How the data were processed

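Bulk RNA of 18 libraries was measured with a TruSeq directional kit, per the labels' protocols. The deposited values are raw counts, which the authors obtained on build GRCm39 with Trim Galore for trimming, STAR for alignment and featureCounts, per the submitters' processing notes. Versions, strand setting and the handling of reads that match several genes are not given in the sources used here, so near-identical and overlapping genes are uncertain. Of 56953 gene IDs, 31172 had no count, and 52029 (91.4%, with 99.8% of counts) matched a symbol in GENCODE M21. That annotation is on GRCm38 and was used for symbols, exon length and 3' untranslated regions, and no gene coordinates are given. Promoters come from RefSeq on GRCm38.p6.

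Column names show the group and a running number without the replicate letter of the titles, so each was mapped to its group only. No column was left out. The chi-square per degree of freedom between replicates was 2.89 to 101 (genes with at least 20 counts in a pair), so none were merged.

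Counts were tested with edgeR 4.0.16 in R 4.3.3: filterByExpr by group (13068 genes), TMM, a robust quasi-likelihood fit of 6 group means over 18 libraries, 12 comparisons, and Benjamini-Hochberg adjustment over all genes with calls at adjusted p under 0.05. Each SE is the size of the log2 fold change over the square root of F, and intervals are at 95%. CPM uses TMM-scaled library sizes. Paralog ratios add 0.5 to each count. The fits were tested on simulated data. All 7 members are described in every group. Of each list, counts are given with the 3 called genes of smallest p for LPS and for 5z7 in B6; Zc3h12d, Tnf, Fos, Tnfrsf4, Cnot1, Rel and the CCR4-NOT and Tob genes were named after their values were seen. The 3 most alike genes are given per member, except 1 gene that is not reported here. The members and lists were chosen with earlier results of these data known.

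Alternatives were DESeq2 1.42.0, its size factors in edgeR, library size alone, no filter, at least 1 CPM in 3 libraries, models of the compared groups alone, each library left out, a block of running numbers and, for ratios, 1 added to each count. An offset that removes each library's trend on exon length, against the mean of all libraries, was added after the data were seen. Python 3.11.15 with matplotlib 3.10.9 drew the figures.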

Additional observations from a re-analysis of the deposited data

How the results depend on the processing

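Over 12 comparisons, 7 members and all alternatives 1281 values were recomputed. Of these 1236 kept their side of the threshold, 35 lost a call, 9 gained one and 1 reversed its direction. A reversal was counted only where the main or the alternative value was called, so uncalled values among the 1236 could change sign. Rc3h1, T169A against B6 in unstimulated cells, went from 0.03 to −0.26 without library 7 in this way. The reversal was Rc3h2 with LPS in T169A cells, at −0.07 with library size alone. That scaling moved the median of all genes to −0.66 and −0.61 for LPS, 0.18 and 0.17 for 5z7, and −0.47 and −0.43 for LPS/5z7 against unstimulated cells (B6 and T169A). With it, 2 members in place of 4 were called for 5z7 in B6, and 4 in place of 7 for LPS/5z7 against unstimulated B6 cells. A fit on the compared groups alone called 1 member in place of 0 between genotypes with LPS/5z7. The causes were not tested.

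Leaving out each library in turn gave 6 to 7 members called for LPS in B6 and 5 to 7 in T169A, 2 to 4 for 5z7 in B6 (2 without LPS/5z7 library 9) and 3 to 4 in T169A, 6 to 7 for LPS/5z7 against unstimulated cells in B6 and 5 in T169A, and 0 between genotypes. All paralog ratio tests kept their side of the threshold. Over all genes, the 5z7 calls in B6 went from 1806 to 2855 with library size alone (2339 higher and 516 lower) and to 1159 and 1169 without library 5 or 6. In T169A they went from 1703 to 2707 (2177 and 530) and to 1102, 1078 and 1009 without library 14, 15 or 18. The genotype calls went from 28 to between 7 (compared groups alone) and 61 (DESeq2) in unstimulated cells, from 29 to between 13 and 51 with LPS, and from 21 to as many as 223 (compared groups alone) with LPS/5z7.

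Samples could not be paired by the letters of their titles. As a stand-in, a replicate block was fitted on sets of consecutive running numbers. Libraries of a set deviated together with r between −0.05 and 0.46, and 13 of 18 libraries correlated best with their own set, a hint from the data that the sets belong together; r was not above 0.1 in every pair and no label ties the columns to the letters, so the block was not used for the results. With the block, 7 members in place of 5 were called for LPS/5z7 against unstimulated T169A cells, where Rc3h1 stood at 0.50 (adjusted p = 0.0151) and Rc3h2 at 0.38 (0.0239), and no other count of members changed.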
